A study of Arabidopsis thaliana with 12 samples.

Results

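The levels of 10 circadian clock transcripts were followed across the 4 groups of an RNA sequencing experiment on UV-B light and abscisic acid (ABA). The genes were taken by locus identifier from 32833 measured loci, and all 10 were found. They are the pseudo-response regulator genes PRR9, PRR7, PRR5, PRR3 and TOC1, the gene GIGANTEA (GI), the evening complex genes ELF3, ELF4 and LUX, and the coactivator gene LNK1. All 10 reached at least 1 TPM (a level per transcript length, scaled to a fixed total in each library) in all 12 libraries.

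Seedlings of Arabidopsis thaliana, 10 days old and raised under 16 h of light with 8 h of darkness, were sampled after 3 h of treatment, with 3 biological replicates in each group. The control group was the reference wild type Col-0 kept in white light with a mock treatment, with neither UV-B nor ABA. The titles mark this group and both UV-B groups as mock, and untreated Col-0 below means mock in white light. A UV-B group of Col-0 got white light to which UV-B was added at 5 µmol m-2 s-1, and the mutant uvr8 got the same light, both without ABA. The ABA group was Col-0 given 50 µM of the hormone and no UV-B. The gene UVR8 encodes the UV-B photoreceptor, and the labels give neither the uvr8 allele nor the hour of the day at which the treatments began. The mutant without UV-B is not analysed here, so an effect of the genotype and an effect of UV-B in uvr8 cannot be told apart. The treatment label of the UV-B samples also allows plain white light, and the titles were used to place them.

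The plant clock is built from genes that repress or activate each other in sequence through the day. In the textbook order the morning MYB-like factors CCA1 and LHY are followed by PRR9, PRR7, PRR5 and TOC1, which repress CCA1 and LHY, and by the evening complex, in which ELF3 bridges the small protein ELF4 and the DNA-binding protein LUX. The complex represses PRR9, PRR7 and growth genes such as PIF4, while RVE8 and its LNK coactivators activate evening genes including PRR5, TOC1 and ELF4. UVR8, once activated by UV-B, acts through COP1 and the transcription factor HY5, and light input of several kinds resets the clock.

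As a check of the labels, UVR8 stood between 20.78 and 23.61 TPM in the uvr8 libraries, below the 66.88 to 73.77 TPM of UV-B-treated Col-0 and the 105.55 to 107.46 TPM of the white-light group. Markers of green shoot tissue were abundant in every library, with a summed level of 4661.7 to 7993.3 TPM over 5 genes. Of 5 root markers, EXPA7 was listed at 0 in all libraries, IRT1 and COBL9 reached at most 0.05 and 0.15 TPM, and PYK10 and NRT2.1 carried the summed level. The shoot sum was 5403.5 to 6345.5 TPM in white light, 7310.3 to 7993.3 under UV-B, 5670.3 to 6879.1 in uvr8 and 4661.7 to 5559.9 with ABA. The root sum was 298.0 to 329.7, 209.8 to 265.7, 248.6 to 275.7 and 340.0 to 456.7 TPM in the same order, and the part of either in the results was not tested. A fall in the number of cells of a type and a fall in transcript per cell cannot be told apart in whole seedlings.

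The libraries also differed with transcript length. Among genes with a mean of at least 5 TPM, the median log2 deviation from the group mean was compared between 1882 genes of at least 3000 bp and 2065 genes of at most 1000 bp. The difference, long minus short, was -0.35 in replicate 3 of uvr8 and -0.33 in replicate 2 of ABA, and lay between -0.19 and 0.20 in the other 10 libraries. Some clock genes moved with it and others did not: in replicate 2 of ABA, GI deviated from its group mean by -0.467 log2 units and LNK1 by -0.390, while ELF4, the shortest of the 10 at 619 bp, deviated by 0.163. PRR5 deviated by only -0.056 there, and LUX, with 3916 bp of annotated exon, by 0.192, against the direction of the long genes. The transcript length of LUX is less sure, as parts of its annotated exons match other loci.

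Upstream sequences are shown for members that differ in their response, PRR9, PRR5 and TOC1, which were higher under UV-B, and LUX, which did not pass the test in that comparison. The bases before the annotated gene start of the RefSeq annotation (TAIR10.1) are given 5′ to 3′ on the strand of the gene. Capitals mark, where present, the evening element AAAATATCT and its short form AAATATCT, which lies within it and which clock MYB-like factors bind, the CCA1-binding site AAAAATCT, the G-box CACGTG, which bZIP and bHLH factors bind, and the LUX-binding sites GATTCG and GATACG, each on either strand. For PRR5 the annotated start is the start of the coding sequence, so the window ends 171 bp before it.
PRR9 (chr2:19232307-19232606, plus strand): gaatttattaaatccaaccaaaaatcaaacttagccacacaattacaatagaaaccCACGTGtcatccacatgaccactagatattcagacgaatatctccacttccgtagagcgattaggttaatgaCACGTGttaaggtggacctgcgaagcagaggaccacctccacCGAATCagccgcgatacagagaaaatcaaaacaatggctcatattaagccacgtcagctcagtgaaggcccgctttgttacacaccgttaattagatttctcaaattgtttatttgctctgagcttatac
PRR5 (chr5:8358717-8358846, minus strand): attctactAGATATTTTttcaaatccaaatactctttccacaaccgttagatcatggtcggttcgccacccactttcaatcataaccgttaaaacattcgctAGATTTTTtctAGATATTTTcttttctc
TOC1 (chr5:24674663-24674962, plus strand): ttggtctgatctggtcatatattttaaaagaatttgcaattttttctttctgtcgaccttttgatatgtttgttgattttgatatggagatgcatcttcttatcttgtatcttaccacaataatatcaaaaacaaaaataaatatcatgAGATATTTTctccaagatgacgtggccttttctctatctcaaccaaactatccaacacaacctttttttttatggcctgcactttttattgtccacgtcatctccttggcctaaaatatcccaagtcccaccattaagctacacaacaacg
LUX (chr3:17182742-17183041, plus strand): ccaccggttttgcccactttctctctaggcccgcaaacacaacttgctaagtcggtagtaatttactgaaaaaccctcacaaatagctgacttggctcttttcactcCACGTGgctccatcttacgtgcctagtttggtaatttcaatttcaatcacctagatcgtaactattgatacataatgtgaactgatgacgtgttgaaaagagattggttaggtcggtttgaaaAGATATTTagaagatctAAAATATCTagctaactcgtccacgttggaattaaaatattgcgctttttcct
In the 300 bp before the start, PRR9 held 2 G-boxes and 1 GATTCG site, PRR5 held 2 evening elements and 1 CCA1-binding site, and TOC1 held 1 evening element. LUX held 1 evening element, 1 further short form and 1 G-box. PRR7 held 1 G-box and ELF3 1 GATACG site, and none of these letters occurred in this window of PRR3, GI or LNK1. Among 27443 windows of the same length before protein-coding genes, 2.79% held the evening element, 5.64% its short form, 7.94% the CCA1-binding site, 7.09% the G-box, 9.34% GATTCG and 5.51% GATACG. The matches describe these windows and were not tested against the expression values.

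In white light the 10 transcripts spanned a wide range of levels. ELF4 was the most abundant at 97.6 ± 6.26 TPM (SD, n = 3), followed by LUX at 75.3 ± 5.52 and TOC1 at 46.1 ± 1.18 TPM. GI at 33.9 ± 3.67 and PRR5 at 32.9 ± 0.295 TPM overlapped in range, as did PRR7 at 29.0 ± 3.22 and ELF3 at 26.2 ± 1.62 TPM. PRR3 at 20.1 ± 1.68, LNK1 at 13.8 ± 0.34 and PRR9 at 1.78 ± 0.455 TPM followed, each apart from its neighbours in range. Of the morning factors, CCA1 held 0.63 to 1.41 TPM and LHY 0.63 to 0.74 TPM in the same libraries. The annotated model of PRR5 holds only its 1677 bp coding sequence, so its level per length is less sure than the others.

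The order changed under UV-B. ELF4 remained first at 466 ± 21.2 TPM, and PRR5 came next at 85.6 ± 11.3 TPM with LUX at 83.1 ± 1.87 and TOC1 at 82.2 ± 6.59 TPM, 3 transcripts whose neighbouring ranges overlapped. In uvr8 under UV-B the first 3 were ELF4, LUX and TOC1, as in white light, and the ranges of PRR5, PRR7, GI, ELF3 and PRR3 overlapped from one to the next. With ABA, LNK1 came next after ELF4, LUX and TOC1 at 36.8 ± 8.28 TPM, overlapping GI, and PRR9 remained last in every group.

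**Figure D1:**
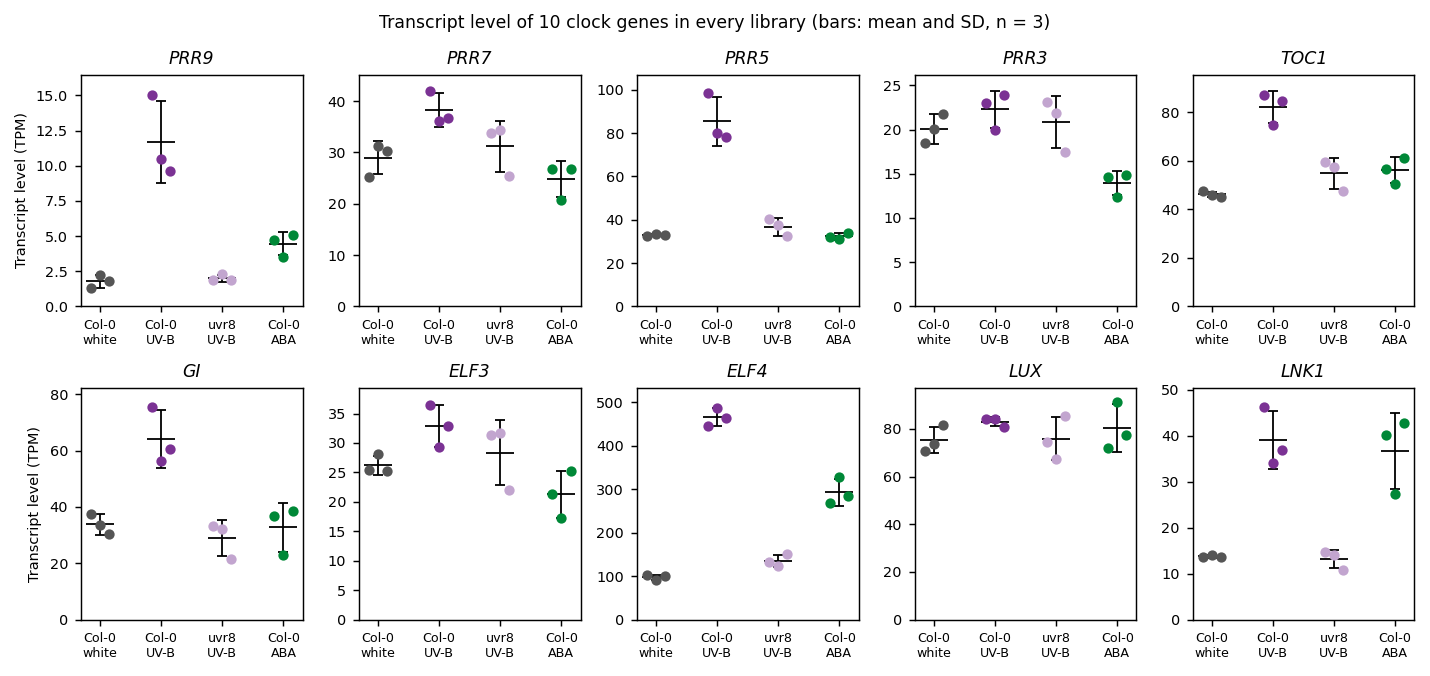
Transcript level in TPM (vertical axes, each from 0) of the 10 clock genes in each of the 12 libraries, by group, with bars for the mean and SD of 3 libraries. ELF4, PRR9, PRR5, TOC1, GI and LNK1 under UV-B in Col-0 lie above all white-light and all uvr8 libraries, while LUX lies between 67.58 and 91.36 TPM throughout.

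The comparison of UV-B-treated with untreated Col-0 asked which clock transcripts differ after 3 h of UV-B. Of the 10 members 7 rose and none fell with the limma test, PRR9, PRR7, PRR5, TOC1, GI, ELF4 and LNK1, where 12.3% of 19922 tested genes rose and 27.8% fell. PRR9, ELF4, LNK1 and PRR5 rose by at least 1 log2 unit, as did 3.96% of all tested genes. The members' median log2 change was 0.86 beside -0.15 for all tested genes. UV-B and white-light ranges did not overlap for 8 members, as for 54.2% of tested genes.

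PRR9, the first pseudo-response regulator of the day and a repressor of CCA1 and LHY (AT2G46790, chr2:19232607-19235179, plus strand), held 1.32, 2.23 and 1.79 TPM in white light and 15.02, 10.45 and 9.62 TPM under UV-B. Every UV-B library lay above every white-light library. The ratio of the means was 6.57, and the log2 change on the log2(TPM + 1) scale, which understates changes near 1 TPM, was 2.18 ± 0.18 (SE, adjusted p = 2.32e-06). AT2G46670, a locus on the same chromosome that matches PRR9 at 99.3% identity over 436 bp, held 0.04 to 0.41 TPM in white light and 0.12 to 3.06 TPM under UV-B, so the level of PRR9 is uncertain to the extent that reads were shared between the copies.

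PRR7, the partner of PRR9 in the morning loop (AT5G02810, chr5:637681-642030, minus strand), held 25.30, 31.33 and 30.29 TPM in white light and 41.98, 36.07 and 36.76 TPM under UV-B. The groups did not overlap, but the rise was small at 0.39 ± 0.14 log2 units (adjusted p = 0.0383). It missed the threshold without the filter on low values (adjusted p = 0.0551), with the replicate number as a block (adjusted p = 0.0584, which leaves 6 of 10 members called) and when any of 5 single libraries was left out, with adjusted p = 0.137 without white-light replicate 1, 0.0623 without white-light replicate 3, 0.114 without UV-B replicate 1, 0.0569 without UV-B replicate 2 and 0.0657 without UV-B replicate 3.

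PRR5, an afternoon repressor of the same family (AT5G24470, chr5:8356204-8358546, minus strand), held 32.70, 33.27 and 32.85 TPM in white light and 98.61, 80.13 and 78.10 TPM under UV-B. The white-light libraries were nearly equal and all 3 UV-B libraries lay far above them. PRR5 rose by 1.34 ± 0.10 log2 units (adjusted p = 8.05e-07).

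TOC1, the evening member of the family (AT5G61380, chr5:24674963-24678550, plus strand), held 47.36, 45.93 and 45.01 TPM in white light and 87.26, 74.73 and 84.55 TPM under UV-B. TOC1 rose by 0.82 ± 0.10 log2 units (adjusted p = 4.86e-05), with no overlap between the groups. PRR3, whose product protects TOC1 from degradation (AT5G60100, chr5:24197971-24201415, minus strand), held 18.45, 20.01 and 21.80 TPM in white light and 23.04, 19.96 and 23.91 TPM under UV-B. Its ranges overlapped, and its difference of 0.14 log2 units had a 95% interval of -0.12 to 0.40 (adjusted p = 0.368).

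GI, a large protein that steadies the F-box photoreceptor ZTL and acts in photoperiodic flowering (AT1G22770, chr1:8061751-8067790, plus strand), held 37.63, 33.68 and 30.30 TPM in white light and 75.66, 56.18 and 60.53 TPM under UV-B. GI rose by 0.90 ± 0.21 log2 units (adjusted p = 0.00464). The spread among UV-B libraries was wider for GI than for TOC1, with SDs of 10.2 and 6.59 TPM.

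Within the evening complex only ELF4 was called higher under UV-B in the fit of all 12 libraries on the deposited scale. ELF4 (AT2G40080, chr2:16734294-16734953, minus strand) held 102.70, 90.59 and 99.43 TPM in white light and 445.46, 487.72 and 463.55 TPM under UV-B, a ratio of 4.77 between the means. ELF4 rose by 2.24 ± 0.09 log2 units (adjusted p = 3.89e-09). ELF3 (AT2G25930, chr2:11058944-11063324, plus strand) held 25.35, 28.07 and 25.19 TPM against 36.53, 29.26 and 32.88 TPM, ranges that did not overlap, but its difference of 0.31 log2 units had an interval of -0.03 to 0.65 and did not pass (adjusted p = 0.132). LUX (AT3G46640, chr3:17183042-17186959, plus strand) held 70.78, 73.72 and 81.47 TPM against 84.07, 84.26 and 80.93 TPM, with a difference of 0.14 log2 units, an interval of -0.08 to 0.37 and overlapping ranges (adjusted p = 0.297).

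LNK1, a coactivator that works with RVE8 (AT5G64170, chr5:25672466-25676823, minus strand), held 13.55, 14.17 and 13.62 TPM in white light and 46.25, 34.18 and 36.95 TPM under UV-B. LNK1 rose by 1.43 ± 0.17 log2 units (adjusted p = 3.53e-05). Its exons share 245 bp with AT5G64160 on the opposite strand, which held 29.25 to 35.13 TPM in white light and 24.82 to 30.73 TPM under UV-B, with means of 31.3 and 27.0 TPM. ELF3 and LUX also share 24 and 698 bp of exon with opposite-strand genes, which reached at most 1.14 and 0.18 TPM.

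The scale and the libraries in the fit matter for the small changes. On the deposited scale ELF3 passed when only the 2 groups compared were fitted (adjusted p = 0.0292). It also passed without ABA replicate 2 and uvr8 replicate 3 (adjusted p = 0.0219), a removal chosen after seeing the data. After TMM-style scaling, which moved the median of all genes from -0.15 to -0.01, PRR3 and ELF3 also rose, by 0.30 and 0.48 log2 units (adjusted p = 0.0182 and 0.00956), so 9 of 10 members were higher and LUX alone did not pass. Subtracting each library's length trend, an alternative chosen after seeing the data, also gave 9 of 10 higher. Over all tested genes, those called higher went from 2451 to 3740 after TMM-style scaling and to 4043 with the length trend subtracted.

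**Figure D2:**
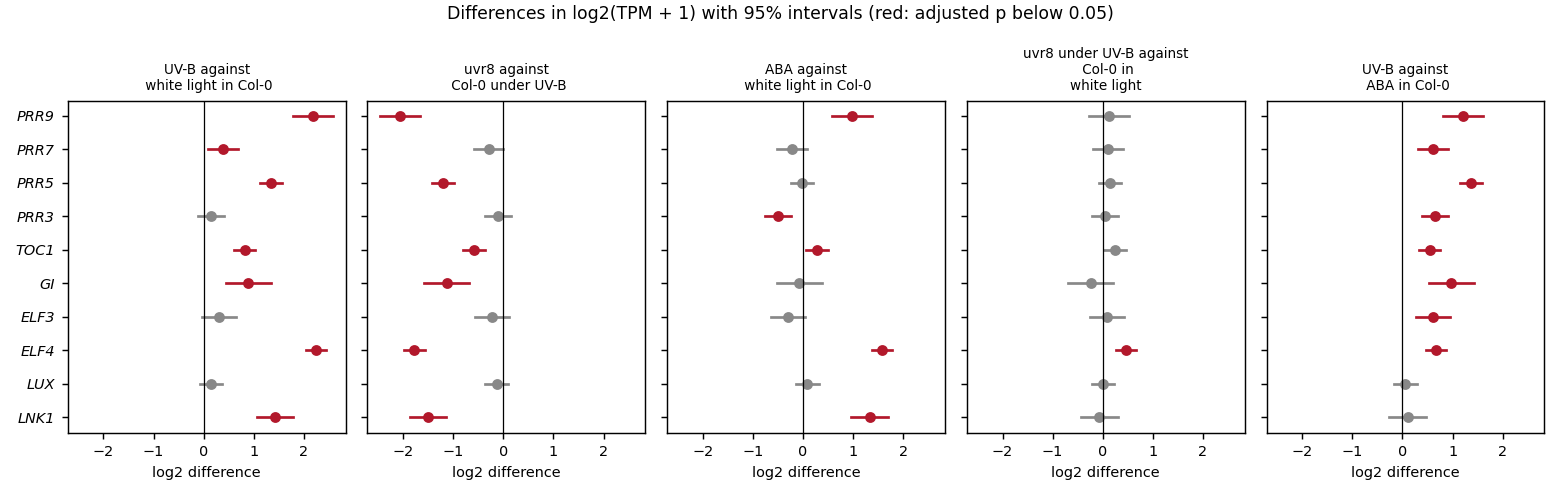
Differences in log2(TPM + 1) (horizontal axes) of the 10 clock genes in the 5 comparisons, as points with 95% intervals, red where the adjusted p is below 0.05. In the first panel all 10 points lie to the right, and 7 of them are called higher with UV-B. In the panel of UV-B-treated uvr8 against untreated Col-0 only ELF4 is called.

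Under UV-B, uvr8 was compared with Col-0 to see which clock levels differ in the photoreceptor mutant, in which UVR8 transcript was lower but still present. PRR9, PRR5, TOC1, GI, ELF4 and LNK1 were lower in uvr8, 6 of 10 members, where 11.1% of tested genes were lower and 32.8% higher, and no member was higher. The members' median log2 difference was -0.86 beside 0.19 for all tested genes, and the ranges were apart for 7 members and 51.6% of tested genes. This comparison uses the same UV-B libraries of Col-0 as the one above.

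PRR9 held 1.87, 2.27 and 1.86 TPM in uvr8 under UV-B, below every UV-B library of Col-0 and overlapping the white-light range. The log2 difference from Col-0 under UV-B was -2.06 ± 0.18 (adjusted p = 3.95e-06). PRR5 held 40.23, 37.53 and 32.31 TPM (difference -1.20 ± 0.10, adjusted p = 2.34e-06). The mean of PRR9 was 2.00 TPM beside 1.78 in white light, and that of PRR5 36.7 beside 32.9 TPM. PRR5 lay above the white-light range of 32.70 to 33.27 TPM in replicates 1 and 2, and just below it in replicate 3.

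TOC1 held 59.41, 57.31 and 47.64 TPM in uvr8, between the 2 Col-0 groups, and all 3 values lay above the white-light range. Its difference from Col-0 under UV-B was -0.58 ± 0.10 (adjusted p = 0.000576). GI held 33.30, 32.01 and 21.52 TPM (difference -1.13 ± 0.21, adjusted p = 0.000897). Replicate 3, the library with low values for long genes, was the lowest for both.

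ELF4 held 132.10, 124.20 and 151.04 TPM in uvr8, a difference from Col-0 under UV-B of -1.77 ± 0.09 log2 units (adjusted p = 3.58e-08). These values still lay above the 90.59 to 102.70 TPM of white light. LNK1 held 14.66, 14.03 and 10.90 TPM, a difference from Col-0 under UV-B of -1.50 ± 0.17 log2 units (adjusted p = 2.30e-05).

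The other 4 members did not pass. PRR7 held 33.70, 34.45 and 25.48 TPM (interval of the difference -0.59 to 0.00, adjusted p = 0.1), and ELF3 31.35, 31.78 and 21.95 TPM (interval -0.56 to 0.12, adjusted p = 0.278). PRR3 held 23.15, 21.93 and 17.49 TPM (interval -0.36 to 0.16, adjusted p = 0.537), and LUX 74.54, 67.58 and 85.45 TPM (interval -0.36 to 0.09, adjusted p = 0.308). After TMM-style scaling PRR7, PRR3 and ELF3 were also lower in uvr8, at -0.50, -0.30 and -0.43 log2 units (adjusted p = 0.00219, 0.0179 and 0.0163). This made 9 of 10 members, while the genes called lower over all those tested went from 2218 to 3752.

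Set directly against untreated Col-0, UV-B-treated uvr8 differed in 1 member of 10, ELF4, which was higher, as were 3.83% of tested genes, while 1.28% were lower. The ranges were apart for 2 members, ELF4 and TOC1, and for 26.7% of tested genes. The difference of ELF4 was 0.47 ± 0.09 log2 units (adjusted p = 0.0129). That call was lost after TMM-style scaling (adjusted p = 0.0931) and without white-light replicate 2 (adjusted p = 0.0598). TOC1 lay above the white-light range by 0.24 log2 units with an interval of 0.02 to 0.45, but did not pass (adjusted p = 0.212), and it passed with the length trend subtracted (adjusted p = 0.0237). For PRR9, PRR5, GI and LNK1 the intervals were -0.28 to 0.52, -0.07 to 0.36, -0.69 to 0.21 and -0.43 to 0.29 log2 units, and each of their UV-B changes in Col-0 lay outside that interval. The difference joins genotype and light, which cannot be told apart.

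The comparison of ABA-treated with untreated Col-0 asked whether the stress hormone moves the same transcripts. PRR9, TOC1, ELF4 and LNK1 rose and PRR3 fell, 4 and 1 of 10 members, where 15.2% of tested genes rose and 39.4% fell. ELF4 and LNK1 rose by at least 1 log2 unit, as did 5.89% of tested genes. The members' median log2 change was 0.03 beside -0.24 for all tested genes, and the ranges were apart for 5 members and 62.5% of tested genes. White light served as control here as it did for UV-B.

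ELF4 held 267.34, 327.14 and 284.62 TPM with ABA, a ratio of 3.00 to the white-light mean, and rose by 1.57 ± 0.09 log2 units (adjusted p = 7.47e-08). LNK1 held 40.27, 27.30 and 42.70 TPM, all above the white-light range, and rose by 1.33 ± 0.17 (adjusted p = 3.87e-05). PRR9 held 4.72, 3.52 and 5.09 TPM and rose by 0.97 ± 0.18 (adjusted p = 0.000848). AT2G46670, the near copy of PRR9, held 0.75 to 1.69 TPM in these libraries.

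TOC1 held 56.77, 50.46 and 61.30 TPM with ABA and rose by 0.28 ± 0.10 log2 units (adjusted p = 0.0331). The adjusted p lay between 0.0536 and 0.122 when any 1 of 5 libraries was left out, white-light replicates 1, 2 or 3 or ABA replicates 1 or 3. PRR3 held 14.61, 12.39 and 14.87 TPM, below every white-light library, and fell by 0.50 ± 0.12 on the log2 scale (adjusted p = 0.00404).

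PRR5 held 32.01, 31.03 and 33.93 TPM with ABA and overlapped white light, with an interval of -0.25 to 0.19 log2 units (adjusted p = 0.831). The direction of that difference depends on the scale: it was -0.03 with the deposited values and 0.22 after TMM-style scaling, which passed the test (adjusted p = 0.0438). GI held 36.67, 22.80 and 38.73 TPM (interval -0.53 to 0.37, adjusted p = 0.764), and PRR7 held 26.77, 20.79 and 26.86 TPM (interval -0.52 to 0.08, adjusted p = 0.193). ELF3 held 21.27, 17.32 and 25.30 TPM (interval -0.64 to 0.04, adjusted p = 0.122) and LUX 71.95, 91.36 and 77.49 TPM (interval -0.14 to 0.31, adjusted p = 0.497). ELF3 fell by 0.43 on the log2 scale without ABA replicate 3 (adjusted p = 0.0457).

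The direct comparison of UV-B with ABA in Col-0 tested where the treatments differ. With UV-B 8 of 10 members were higher than with ABA and none lower, where 32.1% of tested genes were higher and 23.9% lower. The ranges of the same 8 were apart, as were those of 59.3% of tested genes. PRR5 differed most, by 1.37 ± 0.10 log2 units (adjusted p = 2.53e-07), followed by PRR9 at 1.21 ± 0.18 and GI at 0.97 ± 0.21 (adjusted p = 0.000128 and 0.00159). ELF4, high with both, was higher with UV-B by 0.67 ± 0.09 (adjusted p = 6.07e-05), and PRR3, ELF3, PRR7 and TOC1 by between 0.54 and 0.64 log2 units. LNK1 did not pass, with a difference of 0.10 and an interval of -0.26 to 0.46 (adjusted p = 0.631), nor did LUX (interval -0.17 to 0.28, adjusted p = 0.671).

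Ratios within a library do not depend on how the library is scaled, but the length shift does not cancel where the 2 transcripts differ in length. ELF4 over LUX was 1.30 ± 0.131 in white light, 5.61 ± 0.267 under UV-B, 1.79 ± 0.0393 in uvr8 under UV-B and 3.66 ± 0.0689 with ABA (SD, n = 3), and no 2 of the 4 groups overlapped. ELF4 over ELF3 was 3.74 ± 0.449 in white light, 14.3 ± 2.25 under UV-B, 5.00 ± 1.64 in uvr8 and 14.2 ± 4.08 with ABA. With ABA it ran from 11.25 to 18.89 with its highest value in replicate 2, and in uvr8 it was highest in replicate 3, at 6.88. Those 2 libraries stand apart in the length shift, and its part in the ratios was not tested. PRR5 over TOC1 was 0.715 ± 0.0213 in white light, 1.04 ± 0.106 under UV-B, 0.670 ± 0.0132 in uvr8 and 0.577 ± 0.0329 with ABA. An exact permutation test of 3 against 3 libraries cannot give a two-sided p below 0.1, so the ratios carry no test.

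PRR9 over PRR7 was 0.0608 ± 0.00962 in white light, 0.303 ± 0.0494 under UV-B, 0.0648 ± 0.00881 in uvr8 and 0.178 ± 0.0102 with ABA, so uvr8 and white light overlapped and the other groups stood apart. LNK1 over PRR7 was 0.479 ± 0.0489 in white light, 1.02 ± 0.0779 under UV-B, 0.423 ± 0.0144 in uvr8 and 1.47 ± 0.142 with ABA. It was the one ratio of the 6 that was higher with ABA than with UV-B in all libraries. GI over ELF3 was 1.30 ± 0.163 in white light and 1.94 ± 0.117 under UV-B, and the 1.02 ± 0.0417 of uvr8 lay below all white-light libraries.

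**Figure D3:**
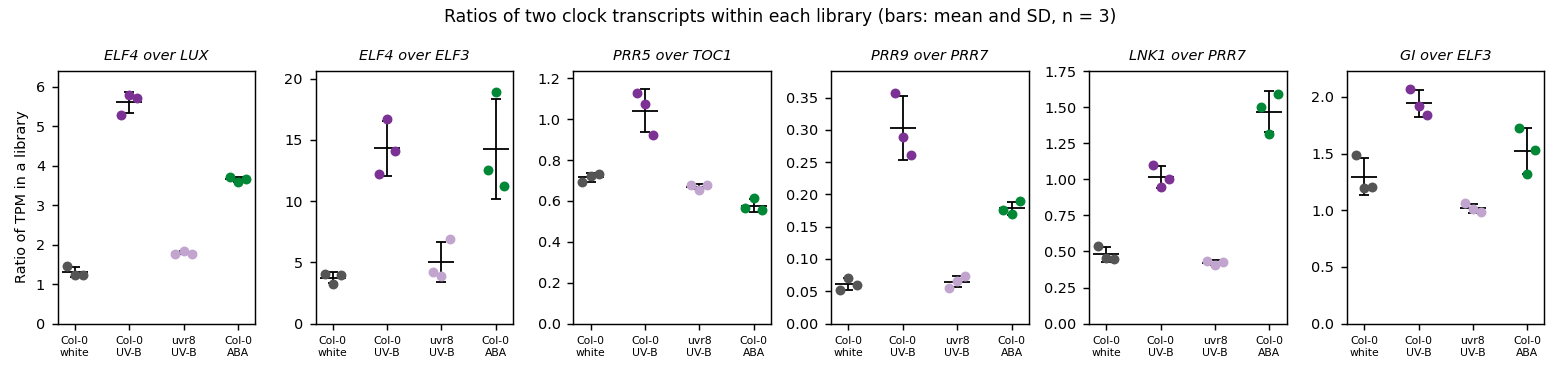
Ratio of TPM of clock transcript pairs within each library (vertical axes, each from 0), by group, with bars for the mean and SD of 3 libraries. ELF4 over LUX separates all 4 groups, from 1.30 in white light to 5.61 under UV-B.

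Other clock genes were grouped by role in 4 lists. All 5 morning MYB-like factors rose with UV-B and all 5 were lower in uvr8 under UV-B, with medians of 1.22 and -1.01 log2 units. LHY held 1.88 to 2.30 TPM in UV-B-treated Col-0 and stayed below 1 TPM in the other groups. It passed the filter only through the group in which it was high, so its calls against that group are not independent of the filter. Over all tested genes 12.3% rose with UV-B and 11.1% were lower in uvr8, with medians of -0.15 and 0.19. RVE8, the activator that works with LNK1, went from 0.50, 0.87 and 1.03 TPM to 9.53, 6.75 and 7.74 TPM (2.32 ± 0.19, adjusted p = 2.07e-06) and held 0.96 to 1.68 TPM in uvr8 (difference -1.92 ± 0.19, adjusted p = 1.07e-05). With ABA 2 of 5 rose, CCA1 and RVE6, beside 15.2% of tested genes, and RVE6 rose most, by 1.23 ± 0.08 (adjusted p = 2.36e-07). Between UV-B and ABA 4 were higher with UV-B and RVE6 was lower, with RVE8 again largest at 2.72 ± 0.19 (adjusted p = 1.95e-07), where 32.1% of tested genes were higher and 23.9% lower. CCA1 passed there only narrowly (adjusted p = 0.0432), and with the replicate number as a block 3 were higher and 1 lower.

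Among 8 close relatives of the members, 1 rose and 2 fell with UV-B, or 2 and 1 after TMM-style scaling. These shares are near the 12.3% and 27.8% of all tested genes, and the list's median was -0.04 beside -0.15 for all. LNK2, which shares its role with LNK1, rose by 0.86 ± 0.14 log2 units (adjusted p = 0.000457), while BOA, the nearest relative of LUX, and ELF4-L2 fell on the deposited scale. In uvr8, where 32.8% of tested genes were higher and 11.1% lower, BOA was higher by 1.02 ± 0.12 (adjusted p = 3.63e-05) and LNK2 and LNK4 were lower. With ABA BOA and ELF4-L1 rose, ELF4-L1 by 1.24 ± 0.25 (adjusted p = 0.00139), and LNK2 and ELF4-L2 fell, which after TMM-style scaling left 2 higher and 0 lower. Of all tested genes 15.2% rose and 39.4% fell with ABA. LNK1 and LNK2 were thus called in opposite directions with ABA on the deposited scale, and in the direct comparison LNK2 was higher with UV-B than with ABA by 1.34 ± 0.14 (adjusted p = 5.71e-06). BOA was lower with UV-B than with ABA by -1.70 ± 0.12 log2 units (adjusted p = 1.95e-07). In that comparison 2 of the 8 were higher and 2 lower, near the 32.1% and 23.9% of tested genes, or 1 and 2 after TMM-style scaling.

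Of 11 other clock regulators 3 rose and 3 fell with UV-B, or 4 and 2 after TMM-style scaling. For all tested genes the shares were 12.3% and 27.8%, so the share that fell is near the background, and the list's median was -0.07. FKF1, a blue-light F-box photoreceptor and partner of GI, rose by 0.99 ± 0.06 (adjusted p = 2.78e-07), and ZTL and the clock repressor gene COR27 rose with it, while CHE, LWD1 and LWD2 fell. In uvr8 4 were higher and 3 lower, beside 32.8% and 11.1% of tested genes, or 1 and 4 after TMM-style scaling, with FKF1 lower by -0.84 ± 0.06 (adjusted p = 1.22e-06). With ABA 2 rose and 2 fell, beside 15.2% and 39.4% of tested genes, or 6 and 2 after TMM-style scaling, and CHE, a TCP repressor of CCA1, fell by 1.34 ± 0.09 on the log2 scale (adjusted p = 1.43e-07). Between UV-B and ABA 4 were higher and 3 lower, near the 32.1% and 23.9% of tested genes. The arginine methyltransferase gene PRMT5 was higher with UV-B by 0.89 ± 0.07 (adjusted p = 5.93e-07).

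Of 8 output genes of growth and flowering, 7 were tested and FT, listed at 0.00 to 1.18 TPM, was not. With UV-B 2 rose and 3 fell, where 12.3% of tested genes rose and 27.8% fell, and the list's median was -0.31 beside -0.15 for all. PIF4, a growth-promoting bHLH factor that the evening complex represses, went from 44.21, 45.73 and 41.51 TPM to 14.24, 13.58 and 13.14 TPM, and fell by 1.61 ± 0.09 on the log2 scale (adjusted p = 4.51e-08). In uvr8 3 were higher and 2 lower than in Col-0 under UV-B, beside 32.8% and 11.1% of tested genes, with PIF4 higher by 1.12 ± 0.09 (adjusted p = 1.23e-06), and PIF4 in uvr8 was also the 1 list gene that differed from untreated Col-0, at -0.49 ± 0.09 (adjusted p = 0.00739). With ABA 4 rose and 1 fell, beside 15.2% and 39.4% of tested genes, or 4 and 0 after TMM-style scaling, and CDF1, a repressor of flowering genes, rose by 1.64 ± 0.15 (adjusted p = 2.31e-06). Between UV-B and ABA none was higher and 4 were lower, beside 32.1% and 23.9% of tested genes, with PIF4 at -1.97 ± 0.09 (adjusted p = 3.38e-09).

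Outside the outputs no list gene was called between UV-B-treated uvr8 and untreated Col-0 on the deposited scale. RVE8, ELF4-L1 and the histone demethylase gene JMJD5 had the largest differences in their lists there, at 0.40 ± 0.19, 0.47 ± 0.25 and 0.38 ± 0.15 log2 units (adjusted p = 0.288, 0.348 and 0.191).

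**Figure D4:**
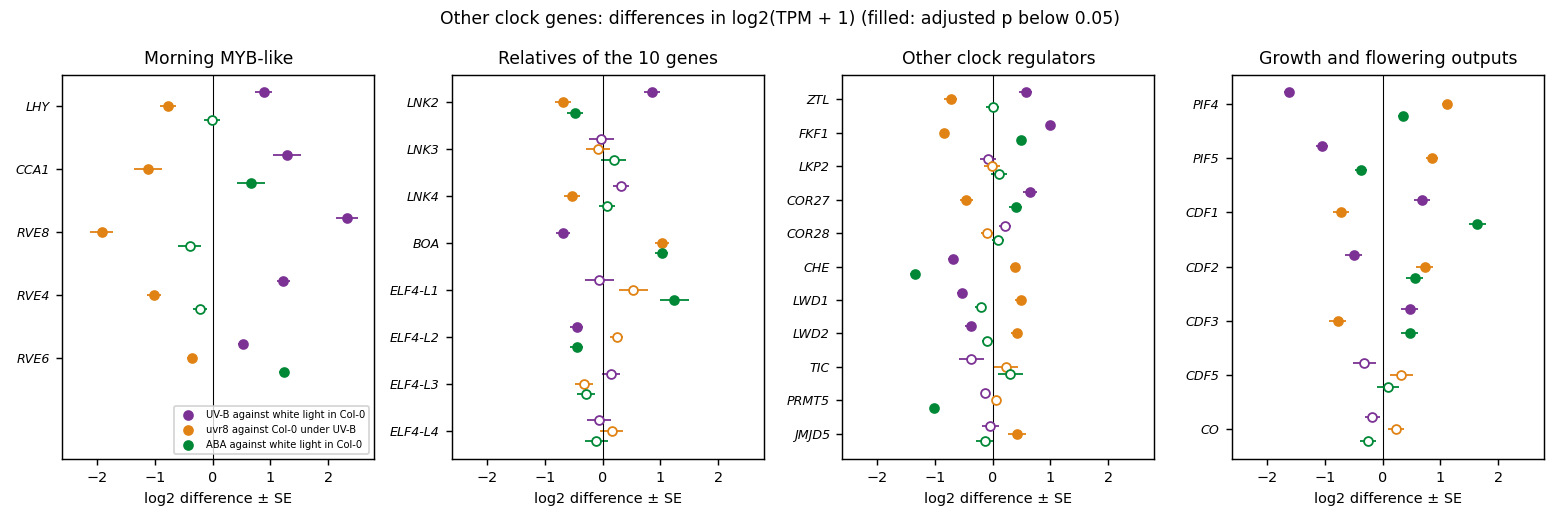
Differences in log2(TPM + 1) with SE (horizontal axes) of the other clock genes in 4 lists for UV-B against white light, uvr8 against Col-0 under UV-B, and ABA against white light, filled where the adjusted p is below 0.05. All 5 morning MYB-like factors lie to the right with UV-B and to the left in uvr8, and PIF4 shows the reverse.

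For each member the gene outside the 10 with the most similar profile was found, as the smallest root-mean-square difference of log2(TPM + 1) profiles over 12 libraries, each centred on its own mean. ELF4 was nearest to AT5G43260, annotated in the files as a DnaJ-like chaperone protein, at 0.158 log2 units, with group means of 23.1, 116, 32.0 and 62.8 TPM in white light, UV-B, uvr8 under UV-B and ABA. PRR9 was nearest to AT4G31390 (ABC1K1) at 0.153, with means of 12.9, 67.8, 14.7 and 26.3 TPM in the same order. LNK1 was nearest to KAI2 (AT4G37470), the karrikin receptor gene, at 0.183, with means of 42.9, 129, 37.1 and 99.0 TPM. These compare with SDs of 0.93, 0.932 and 0.765 log2 units of ELF4, PRR9 and LNK1 over the 12 libraries.

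PRR5 was nearest to AT4G03020, annotated in the files as a putative WD-repeat protein, at 0.0737 log2 units, with means of 45.1, 109, 45.5 and 43.5 TPM in the same order of groups. For TOC1 the nearest was AT4G13550 at 0.092, and for GI the subtilase gene SBT4.1 (AT2G39850) at 0.135. PRR7, PRR3, ELF3 and LUX, which vary little, were nearest to AT3G10970, AT4G32050, AT4G03260 and AT3G03120, at 0.0585, 0.0632, 0.0828 and 0.079 log2 units. Their own SDs over the 12 libraries were 0.278, 0.289, 0.294 and 0.129 log2 units, so the match of LUX is loose for its spread.

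**Figure D5:**
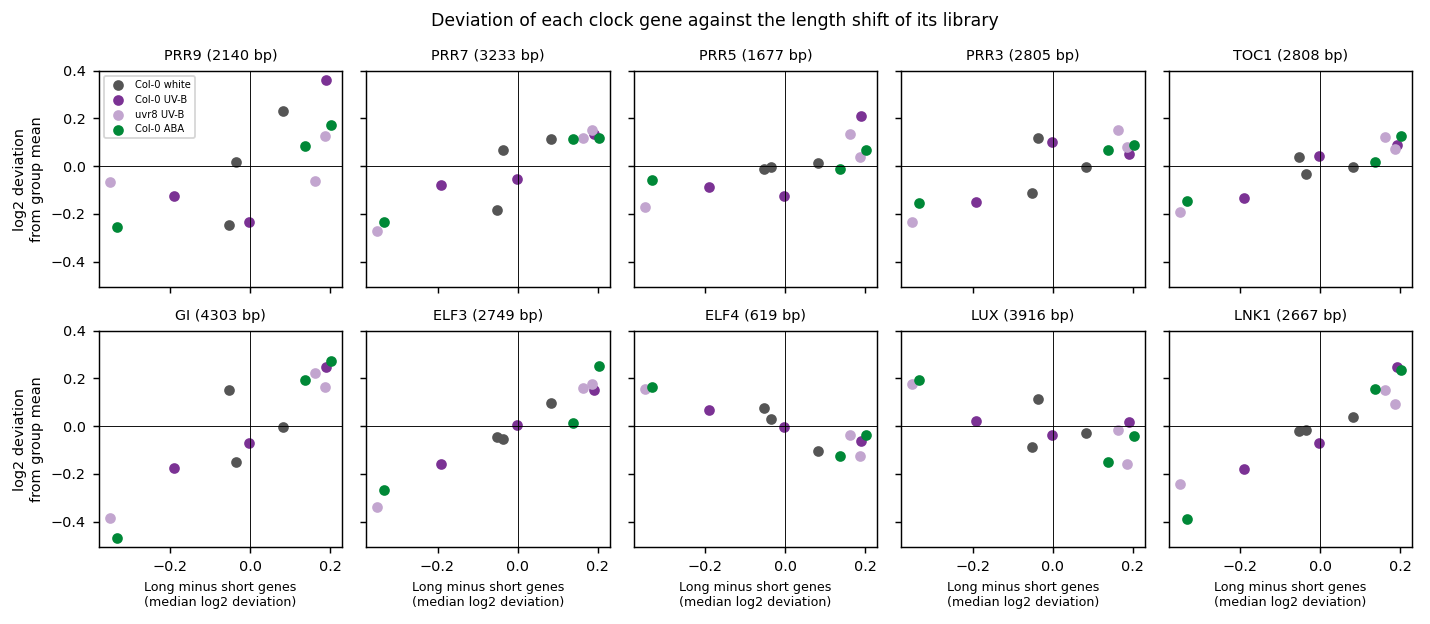
Log2 deviation of each clock gene from its group mean (vertical axes) against the length shift of the library, the median deviation of long genes minus that of short genes (horizontal axes), for 12 libraries coloured by group, with the annotated exon length in each title. GI, ELF3, PRR7 and LNK1 are low in the libraries at -0.35 and -0.33 on the horizontal axis, where ELF4 and LUX are high.

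Several members deviated within groups along with the length shift of the libraries, as the plot of deviations by library shows, and the part of that shift in the results was examined only by the alternatives below. In replicate 3 of uvr8, at a shift of -0.35, GI, ELF3, PRR7 and LNK1 deviated from their group means by -0.386, -0.337, -0.270 and -0.244 log2 units, and ELF4 and LUX by 0.157 and 0.176. LUX, whose annotated exons add up to 3916 bp, moved with ELF4 and not with the long members. Of these exons 698 bp are shared with AT3G46650 on the opposite strand, and a part matches AT3G46690 at 82.8% identity over 616 bp. The length of the LUX transcript is therefore unsure, and the subtraction of the length trend used 3916 bp. Between groups the median log2 change with UV-B was -0.29 for long genes and -0.0026 for short genes, and with ABA it was -0.26 and -0.25. Without the ABA and uvr8 libraries that stand apart, a choice made after seeing the data, 8 members rose with UV-B and 7 were lower in uvr8. With ABA 4 rose and 1 fell. The added calls were ELF3 with UV-B (adjusted p = 0.0219) and LUX, lower in uvr8 at -0.22 log2 units (adjusted p = 0.0359). Calls over all genes were not counted for this setting. With the length trend of each library subtracted, 9 were lower in uvr8, and the counts with ABA remained 4 and 1. Over all tested genes 4198 were then lower in uvr8, beside 2218 on the deposited scale.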

How the data were processed

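RNA was sequenced from 12 seedling libraries, 3 in each of 4 groups taken from the sample titles. The authors deposited 1 TPM value per gene and library. The unit was read from the values, which are not whole and sum to between 998197.5 and 998680.8 per library. TPM keeps no read depth, so depth per library is unknown and no counting interval can be given. The build is TAIR10, per the submitters' processing notes. For aligner, counter and strand the sources used here give nothing. No 2 of 66 library pairs were identical.

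The 19922 genes reaching 1 TPM in 3 or more libraries entered a single limma fit (version 3.58.1, R 4.3.3) of 4 group means to log2(TPM + 1), with variances moderated along mean level. P-values were adjusted by Benjamini-Hochberg over all of them and called at 0.05. The fit was tested on simulated data with independent noise for each gene and without the length shift of the libraries. The outcome is not reported here. Alternatives were TMM-style scaling, exclusion of organelle genes, other filters, a pseudocount of 0.1, no trend, 2 groups only, a replicate block, and each library left out. Subtraction of a length trend and joint removal of 2 libraries were chosen after seeing the data. The members, lists and rules were chosen with earlier results of these data known. The text names the 10 members, UVR8, the nearest gene to each member among tested genes with at least 50% of its SD, and the largest change of each list, plus other list genes named after their values were seen. Of 32833 loci 32548 matched the TAIR10.1 annotation by name, which with its genome gave positions, lengths and upstream sequences. Copies were searched with BLAST+ 2.17.0. The sequence upstream of ELF4 is not reported here.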

Additional observations from a re-analysis of the deposited data

How the results depend on the processing

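Over 80 recomputed counts of members called, 76 stayed within 1.5 times the reported count. The 4 that did not all concern UV-B-treated uvr8 against untreated Col-0, where 1 member was called: 0 after TMM-style scaling, 2 with the length trend subtracted, 2 without ABA replicate 2 and uvr8 replicate 3, and 0 to 1 when each library was left out in turn. Leaving out single libraries gave 6 to 7 for UV-B, 6 for uvr8 under UV-B, 4 to 5 for ABA and 8 for UV-B against ABA. The rule of 1.5 times is a loose one here. Among 10 members a reported count of 7 or 8 cannot rise beyond it, and 9 against 6 in uvr8 under UV-B after TMM-style scaling stayed within it. Of 800 recomputed log2 changes of single members 769 stayed on the same side of the threshold without a called reversal, 16 passed where the reported value did not, 14 lost the call, and 1 reversed with a call, PRR5 with ABA at 0.22 after TMM-style scaling. The cause of these changes was not tested. TMM-style scaling also changed the split of all genes called from 2451 higher and 5543 lower to 3740 and 3485 with UV-B, from 6538 and 2218 to 3750 and 3752 in uvr8, and from 3030 and 7851 to 4736 and 4330 with ABA, while the median of all genes moved from -0.24 to -0.02 with ABA and from 0.19 to 0.01 in uvr8. With a filter of 5 TPM, the morning factors LHY and CCA1 were not tested, which left 3 of that list higher with UV-B.

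Whether the replicate numbers pair the libraries cannot be settled from these values. Same-numbered libraries of different groups had deviations with correlations across genes from -0.20 to 0.36. With 3 candidates for each, 17 of 36 best matches carried the same number. The length shift of the libraries also enters these deviations. With the replicate block 6 members rose with UV-B instead of 7, PRR7 losing its call (adjusted p = 0.0584), and 6, 5, 1 and 8 were called in the other comparisons. For the other lists the block gave 3 higher and 1 lower morning factors between UV-B and ABA, 2 higher and 2 lower relatives with UV-B, and 3 higher and 3 lower regulators in uvr8. With unknown depth, small differences of PRR9, CCA1 and LHY near 1 TPM are the least certain.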
